A study of Mus musculus with 6 samples.

Results

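Chimeric AGO2 eCLIP was used to read which RNAs a set of 11 brain miRNAs was joined to in the newborn mouse brain. In this method RNA is UV-crosslinked to AGO2, the protein is immunoprecipitated (IP), and a miRNA is ligated to the target held beside it, so that a chimeric read names both. The set holds miR-128-3p, miR-129-5p, miR-132-3p, miR-137-3p, miR-138-5p, miR-153-3p, miR-212-3p, miR-218-5p, miR-219a-5p, miR-7a-5p and miR-7b-5p. Its members are the target clusters that the authors listed under 1 of these names, and a cluster with several names was counted once for each. They numbered 2579 of 66068 assignments over 3 libraries. The IP libraries came from whole brains of C57Bl/6J pups at postnatal day 0 (P0), 1 WT and 2 *Mov10* Deletion, and each had a size-matched input. The *Mov10* Deletion mouse descends from a *Mov10* conditional knockout with floxed exons and an *Emx1*-driven Cre, crossed with a *Mov10* heterozygous mutant, and Cre acts in excitatory neurons of its hippocampus and neocortex. A whole brain also holds cells outside that Cre lineage. With 1 WT library, differences between the genotypes have no replicate check and no test was made. The total depth of the libraries is unknown. The *Mov10* Deletion lists are not independent in position. Of their AGO2 clusters, 614927 have the same coordinates in both libraries, and all 145 member clusters of replicate 1 that overlapped 1 of the same miRNA in replicate 2 had identical coordinates there, whereas no member cluster of WT had those of either.

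A miRNA guides AGO2 by pairing its seed, nucleotides 2 to 8, with a complementary stretch of a target, most often in a 3’UTR. The targets are then repressed by TNRC6 proteins and the enzymes they recruit. All 11 miRNAs are known from neurons. miR-128-3p dampens neuronal excitability, miR-132-3p and miR-212-3p respond to activity through CREB, and miR-138-5p acts on the size of dendritic spines. miR-137-3p and miR-153-3p bear on the synaptic vesicle cycle, miR-218-5p marks motor neurons and arises from introns of *Slit2* and *Slit3*, and miR-219a-5p also drives oligodendrocytes to mature. miR-7 is bound by a circular RNA, Cdr1as, which is transcribed antisense to *Cdr1* and is abundant in neurons. Whole-brain libraries do not show which cells the clusters came from, and fewer cells of a type cannot be told apart from less RNA per cell.

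The mature sequences are printed because members with the same seed can share targets. They were taken from the RefSeq miRNA table of GRCm38.p6, which held all 11, and the seed is in capitals.
miR-128-3p: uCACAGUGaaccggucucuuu
miR-129-5p: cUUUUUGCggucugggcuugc
miR-132-3p: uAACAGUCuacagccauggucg
miR-212-3p: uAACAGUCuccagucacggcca
miR-137-3p: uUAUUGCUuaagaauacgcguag
miR-138-5p: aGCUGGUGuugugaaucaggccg
miR-153-3p: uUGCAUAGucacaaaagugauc
miR-218-5p: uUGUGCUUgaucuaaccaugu
miR-219a-5p: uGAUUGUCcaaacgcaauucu
miR-7a-5p: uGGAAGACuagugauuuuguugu
miR-7b-5p: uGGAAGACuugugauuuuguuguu
The 11 miRNAs have 9 different seeds. miR-132-3p and miR-212-3p share a seed and differ, counted from the 5′ end with the base of miR-132-3p given before the position, at A10C, C14U, U17C, U20C and G22A. miR-7a-5p and miR-7b-5p share a seed and differ at A10U, and miR-7b-5p is longer by its last nucleotide.

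miR-128-3p was the most frequent of the 11 in every library and miR-212-3p the least. Together the 11 miRNAs took 751 of 22074 assignments in WT (3.4%, exact 95% interval 3.17 to 3.65). They took 1260 of 30526 in *Mov10* Deletion replicate 1 (4.13%, 3.91 to 4.36) and 568 of 13468 in replicate 2 (4.22%, 3.88 to 4.57). Of these members 315, 569 and 283 in the same order were miR-128-3p clusters, and a joint share without miR-128-3p was not computed. The *Mov10* Deletion intervals of the joint share overlapped each other and lay above that of WT. These are Clopper-Pearson intervals, which take in the error of counting and nothing else. Whether the joint order holds without miR-128-3p was not tested. Among single miRNAs, only miR-128-3p had a WT interval clear of both others.

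For miR-128-3p there were 315 clusters in WT (1.43%, interval 1.27 to 1.59). *Mov10* Deletion replicate 1 had 569 (1.86%, 1.72 to 2.02), and 283 were listed in replicate 2 (2.10%, 1.87 to 2.36). It stood at rank 10 of 328 listed miRNAs in WT, and at rank 6 of 459 and of 379 in the *Mov10* Deletion replicates. The WT share of miR-128-3p lay below both *Mov10* Deletion shares, and its interval did not reach theirs. For miR-153-3p the order was the other way, with 150 clusters in WT (0.680%, 0.575 to 0.797) against 182 (0.596%, 0.513 to 0.689) and 55 (0.408%, 0.308 to 0.531). Its ranks were 18, 19 and 32. The *Mov10* Deletion replicates differed by more than WT and replicate 1 did, and among clusters with a single miRNA name the WT share of miR-153-3p, 0.550%, lay between theirs, 0.584% and 0.409%.

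The middle of the set was closely spaced. miR-138-5p had 69, 141 and 64 clusters in WT and *Mov10* Deletion replicates 1 and 2 (0.313%, 0.462% and 0.475%). miR-7a-5p had 63, 105 and 57 in the same order (0.285%, 0.344% and 0.423%). miR-219a-5p had 51, 79 and 28 (0.231%, 0.259% and 0.208%). The intervals of these neighbours overlapped in WT, so their order there is within counting error. miR-137-3p followed with 39, 61 and 28 clusters (0.177%, 0.20% and 0.208%). miR-7b-5p had 33, 43 and 18 (0.149%, 0.141% and 0.134%), and miR-218-5p had 21, 45 and 21 (0.0951%, 0.147% and 0.156%). These 3 miRNAs also could not be ranked beyond their intervals.

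The rarest members were miR-132-3p with 6, 11 and 9 clusters, miR-129-5p with 4, 22 and 3, and miR-212-3p with 0, 2 and 2. With 3 counts taken as the limit that a count of 0 allows, 0 of 22074 assignments in WT allows a share of miR-212-3p of up to 0.0136%. miR-132-3p exceeded miR-212-3p in every library although their seeds are the same. Over the set, the WT share lay below both *Mov10* Deletion shares for 8 of 11 miRNAs, above both for miR-153-3p and miR-7b-5p, and between them for miR-219a-5p. Only for miR-128-3p was the WT interval clear of both others. For every other miRNA it overlapped that of at least 1 replicate. The place of WT relative to both others (below, between or above) was the same for 8 of the 11 miRNAs at a score of at least 4, for 7 at a score of at least 5 and for 9 among clusters with a single name. At a score of at least 4 the WT share of miR-137-3p lay above both others (0.213% against 0.148% and 0.189%), as it did at a score of at least 5 (0.218% against 0.145% and 0.192%). Without Cdr1as, described below, or among clusters with a single name, the WT share of miR-7b-5p lay below both others. Clusters named by several miRNAs made up 38.6% of members in the WT library, and 20.1% and 18.8% in *Mov10* Deletion replicates 1 and 2, against 28.3%, 17.6% and 12.8% of all assignments. Among clusters with a single name the joint share of the 11 miRNAs was 2.91% in WT, below 4.0% and 3.93% in the replicates.

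**Figure D1:**
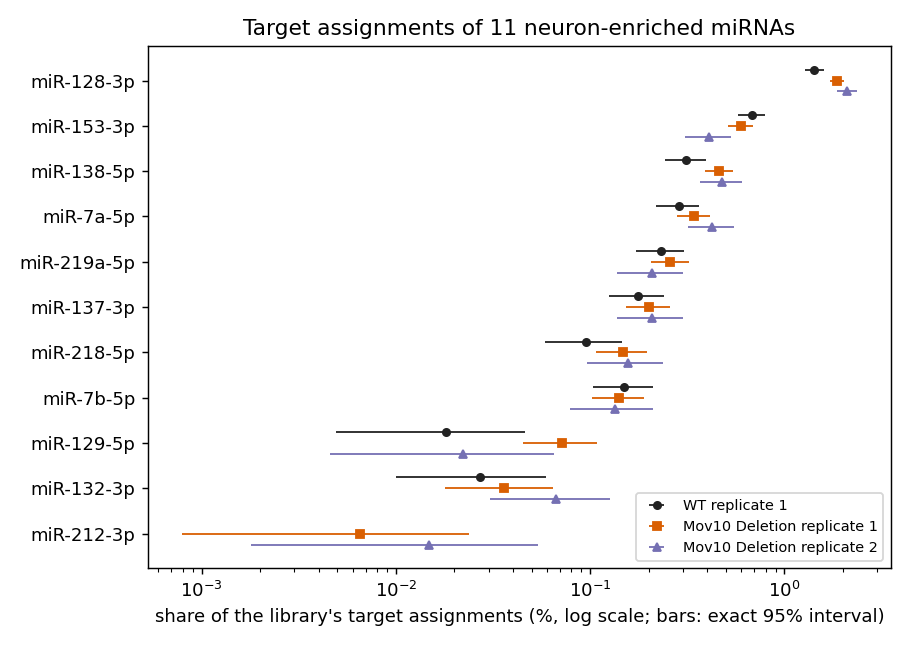
Share of each library's target assignments held by each of the 11 miRNAs (percent, log axis). Points are libraries, bars are exact 95% intervals, and miR-212-3p has no WT point because it had 0 clusters there. miR-128-3p stands to the right of all others in each library, from 1.43% to 2.10%, and its WT bar lies left of the other bars.

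The clusters with the highest scores of the whole set belonged to miR-7 and lay antisense to *Cdr1*, over the circular RNA Cdr1as. The score is the value the authors deposited with each target cluster, it begins at 3 in these lists, and the sources used here do not define it. The RNA was matched by position, as the plus strand over *Cdr1* on the X chromosome and up to 1000 nt on either side. In WT, 25 of 63 miR-7a-5p clusters lay there (39.7%, interval 27.6 to 52.8), within chrX:61183268-61186125 of mm10. In *Mov10* Deletion replicate 1 there were 23 of 105 (21.9%, 14.4 to 31.0) and in replicate 2 23 of 57 (40.4%, 27.6 to 54.2), within chrX:61183280-61186132. For miR-7b-5p the counts were 25 of 33, 20 of 43 and 13 of 18. Both miR-7 forms were thus listed there in each library, while miR-128-3p, miR-129-5p, miR-132-3p, miR-137-3p, miR-212-3p and miR-218-5p had no cluster at the locus in any.

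Of the 20 highest member scores of a library, 18 lay at this locus in the WT library, and 14 and 16 in *Mov10* Deletion replicates 1 and 2. The highest of all were miR-7a-5p clusters. The top WT cluster, chrX:61183679-61183805, scored 448, and the next at chrX:61183455-61183546 and chrX:61185446-61185555 scored 252 and 194. In *Mov10* Deletion replicate 1 the top cluster, chrX:61183701-61183795, scored 155, and in replicate 2 the same interval scored 72.1. The median miR-7a-5p score at the locus was 98.2 in WT, 52.9 in replicate 1 and 27.4 in replicate 2, so the replicates of 1 genotype also stood apart from each other. These scores were not scaled to depth, which is unknown.

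miR-7a-5p outscored miR-7b-5p in every cluster at the locus that listed both, 25 of 25 in WT, 20 of 20 in *Mov10* Deletion replicate 1 and 13 of 13 in replicate 2. The median ratio of their scores was 9.45, 7.66 and 5.49. Of all miR-7b-5p clusters, 31 of 33 in WT also carried the name miR-7a-5p, 25 of them at this locus. In replicates 1 and 2 these were 28 of 43 and 15 of 18, with 20 and 13 at the locus. AGO2 itself was enriched over input there. A cluster counted as enriched where its log2 of IP over input and its −log10 p both reached 3. Such an AGO2 cluster lay under 20 of 25 miR-7a-5p clusters in WT, 14 of 23 in replicate 1 and 20 of 23 in replicate 2. Over all assignments the shares were 20%, 14.7% and 14.1%. The median log2 of the AGO2 clusters below these miR-7a-5p clusters was 3.90, 3.13 and 3.50. Many of the miR-7a-5p clusters abut and have the same AGO2 log2 below them, so they are not separate observations. The intervals given for this locus do not take that in.

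Further miRNAs were listed at the locus. With both miR-7 forms included, WT had 23 miRNA names there, and the *Mov10* Deletion replicates had 18 and 16. miR-671-5p, known to cut Cdr1as, was named on 3, 3 and 2 clusters. miR-124-3p, a neuronal miRNA with 9312 clusters in WT, was named on 16, 12 and 5. Within the set, miR-138-5p had 3, 0 and 1 clusters at the locus, miR-153-3p had 3, 2 and 0, and miR-219a-5p had 1 in replicate 2. The sequence of the locus was read on GRCm39, where GENCODE has a plus-strand exon of *Cdr1os* at chrX:60226854-60229780, 2927 nt long. It held 123 matches of 7 nt to the miR-7 seed (GTCTTCC, plus strand only), 42.0 per 1000 nt, with a median step of 18 nt from one to the next. The seed match of miR-219a-5p occurred 1 time, and those of the 7 other seeds did not occur. The first matches in the exon are shown for their spacing, with the seed match in capitals and 10 nt on either side.
chrX:60226879-60226885, plus strand: cagtaccaagGTCTTCCaacatctcca
chrX:60226897-60226903, plus strand: acatctccagGTCTTCCagcaactgca
chrX:60226915-60226921, plus strand: gcaactgcaaGTCTTCCaacactgtca

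**Figure D2:**
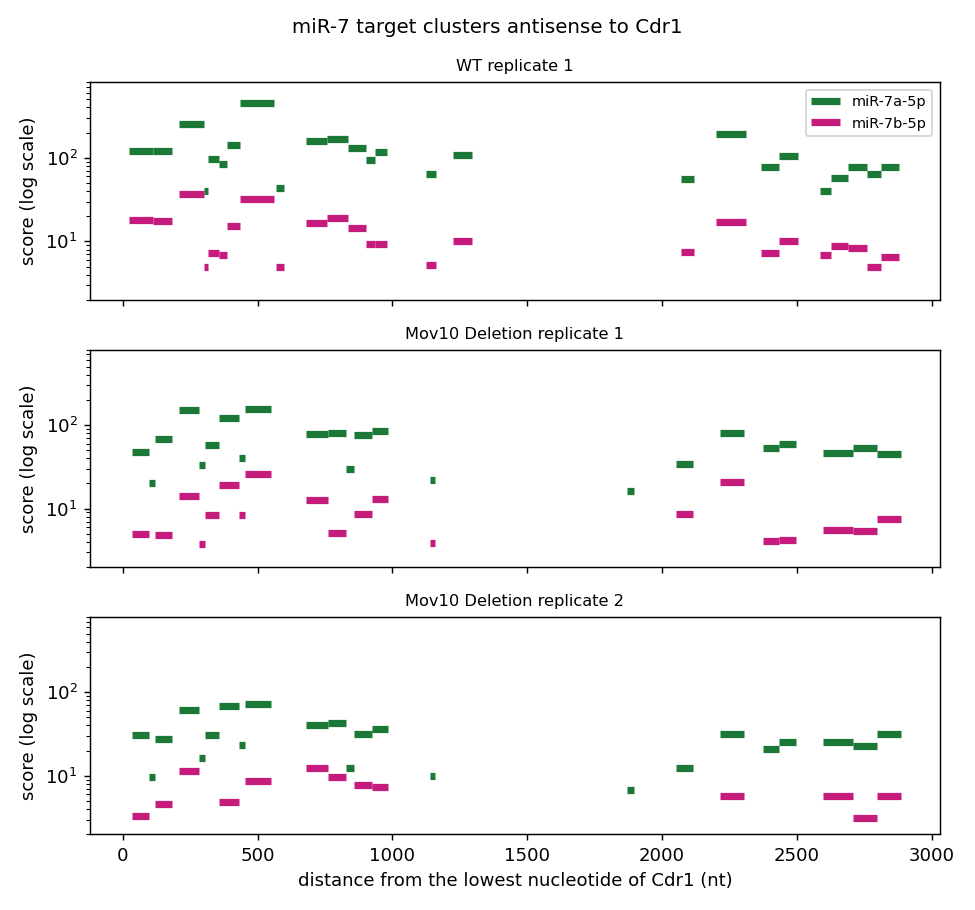
Score (log axis) of each miR-7a-5p and miR-7b-5p target cluster antisense to *Cdr1* against the distance from its lowest nucleotide (nt), a panel per library; bar length is cluster length. The miR-7a-5p bars stand above the miR-7b-5p bars in every cluster with both, and the highest score falls from 448 in WT to 155 and 72.1 in the *Mov10* Deletion replicates.

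Outside Cdr1as, the highest miR-7a-5p score of each library lay beyond the RefSeq end of *Oip5os1*, the lncRNA also called Cyrano, which is known to pair with miR-7 almost along its whole length and to lower its level. This locus was looked up after its values were seen. The WT cluster, chr2:119602107-119602220 of mm10 on the plus strand, began 1361 nt past the RefSeq end and scored 94.8 for miR-7a-5p and 11 for miR-7b-5p. In replicate 1 a pair of abutting clusters, chr2:119602104-119602147 and chr2:119602148-119602219, scored 33.4 and 69.7 for miR-7a-5p, and the latter scored 5.13 for miR-7b-5p. In replicate 2 the same intervals scored 14.5 and 27.7, and 3.16 for miR-7b-5p. The AGO2 log2 below them was 2.92, 3.31 and 2.91, so that only that of replicate 1 counted as enriched. GENCODE extends the gene past this point on GRCm39, where 2 of its 257 exon records hold a second miR-7 seed match of the gene, printed here because of its length of pairing.
*Oip5os1*, chr2:119432635-119432641, plus strand: acaacaaaatcaccaatGTCTTCCattttg
Nucleotides 1 to 8 of miR-7a-5p and its last 13 nt are complementary to this stretch, 21 of 23 nt, with 4 nt of the target between the paired runs. By distance from the ends of the neighbouring genes *Chp1*, *Oip5* and *Nusap1* in each build, 4 of 6 ends place this match inside the clusters of all 3 libraries. The distance from the start of *Oip5os1* itself does not, since the match lies 8239 nt from the GENCODE start and the clusters 7808 to 7924 nt from the RefSeq start. miR-137-3p was also listed downstream in each library, at chr2:119603454-119603554 with a score of 12.8 in WT, and with 4.65 and 3 in the *Mov10* Deletion replicates, where miR-153-3p had a cluster further on with 7.01 and 9.79. Because the RefSeq gene ends earlier, these clusters are not in the counts of target genes below.

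A target gene is a gene whose body on mm10 holds the midpoint of a member cluster on its sense strand. The set had 572 such genes in the WT library, and 953 and 459 in *Mov10* Deletion replicates 1 and 2, and 1535 in any library. Of all protein-coding genes, 2.57%, 4.27% and 2.07% held a member cluster in these libraries. Of the genes, 163 were listed in both *Mov10* Deletion libraries and 103 in all 3 libraries. Counted as pairs of a miRNA and a gene, 83 recurred in all 3, which is 13.2% of the 628 pairs of WT, 7.57% of the 1096 of replicate 1 and 16.9% of the 491 of replicate 2.

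miR-128-3p held 50 of the 83 recurrent pairs and had 823 target genes in any library. *Nrp2*, a receptor for semaphorins in axon guidance, scored 28.0 in the WT library, and 50.1 and 19.3 in *Mov10* Deletion replicates 1 and 2. Its WT cluster, chr1:62796533-62796627, lay on an AGO2 cluster with a log2 of 5.63, and the clusters of the other libraries on log2 values of 4.0 and 4.19. *Nrp2* thus stood on enriched AGO2 in every library. Its clusters lay 22094 to 22154 nt before the gene end, beyond the length of its longest annotated 3’UTR, 3325 nt. The miR-128-3p seed match in that 3’UTR lay in no cluster of any library. *Iglon5*, a neuronal adhesion protein, scored 27.2, 33.4 and 18.6, with no AGO2 cluster below in any library. The miR-128-3p seed match inside its 3’UTR clusters is shown as an example of a site that all 3 libraries cover.
*Iglon5*, chr7:43123718-43123724 of GRCm39, minus strand: gagaacccatCACTGTGagggattatg
Other pairs of miR-128-3p in all 3 libraries, named after their values were seen, were *Tubb5*, a β-tubulin (32.3, 14.6 and 19.7), *Sp1*, a widely used transcription factor (23.9, 42.0 and 7.86), and *Gad1*, which makes GABA (27.1, 14.8 and 4.76). *Ank2*, *Ctnna2* and *Macf1*, which tie the membrane or adhesion sites to the cytoskeleton, were among them too. WT gave the highest score for some of these pairs and replicate 1 for others.

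miR-153-3p came next, with 283 target genes and 14 recurrent pairs. *Neurod2*, a transcription factor of differentiating neurons, scored 19.7 in the WT library, and 23 and 9.86 in *Mov10* Deletion replicates 1 and 2. *Mir124a-1hg*, the host transcript of a miR-124 precursor, scored 67.5, 79.3 and 9.69. Its clusters, at chr14:64590952-64591047 in WT, lay past the *Mir124a-1* hairpin, which ends at 64590741, and carried no other miRNA name. This was the highest miR-153-3p score in WT and in replicate 1, and *Neurod2* held the highest in replicate 2. Neither gene was on enriched AGO2 in any library. The AGO2 log2 was 1.25, 1.31 and 0.611 at *Mir124a-1hg*, and 2.20, 1.88 and 1.35 below the leading *Neurod2* clusters. *Rap2b*, a small GTPase, scored 10.2, 9.17 and 8 on AGO2 clusters with a log2 of 4.08, 2.95 and 4.25. *Tnrc6c*, a member of the TNRC6 family that silences miRNA targets, scored 10.4, 3.03 and 5.30, and *Map2*, the dendritic microtubule protein, 8.73, 14.8 and 3.
*Neurod2*, chr11:98217184-98217190 of GRCm39, minus strand: acacaaatatCTATGCAaggaggttct
This seed match lay in the cluster of each library.

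miR-219a-5p had 133 target genes, and its leading pairs were a synaptic and a transcriptional gene. *Syt5*, a calcium sensor of vesicle fusion, scored 41.9 in the WT library, and 40.3 and 17 in *Mov10* Deletion replicates 1 and 2. The AGO2 clusters below had a log2 of 4.69, 5.30 and 5.23, and so were enriched in every library. *Zbtb18*, a repressor needed for cortical neurons to mature, scored 31.5, 19.7 and 7.97 on AGO2 with a log2 of 1.73, 1.94 and 2.11. *Zbtb18* is on the list of textbook targets, and it was not on enriched AGO2 in any library. Their seed matches, in the cluster of every library, are set side by side.
*Syt5*, chr7:4542869-4542875 of GRCm39, minus strand: cctctgctttGACAATCagctgtgaag
*Zbtb18*, chr1:177278205-177278211 of GRCm39, plus strand: atctagctttGACAATCatagtatgtt
The other leading pair, *Gm26202*, is a snoRNA that lies in *Rpl17*, and the same cluster counts for both (7.94, 5 and 6.94). AGO2 there was below input in every library, at a log2 of -1.24, -3.11 and -0.33. *Zfp148*, a zinc finger protein, and *Rn18s-rs5* made up the rest of the 6 pairs.

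Apart from Cdr1as, miR-7a-5p had 122 target genes. *Ids*, a lysosomal sulfatase, scored 34.6 in the WT library, and 52.2 and 22 in *Mov10* Deletion replicates 1 and 2. Its AGO2 clusters had log2 values of 6.07, 5.88 and 6.60. Its cluster in replicate 1, chrX:70344058-70344277, carried 23 miRNA names, and miR-7b-5p scored 8.37, 8 and 3 in the gene, its only pair in all 3 libraries. *Tuba1a*, the α-tubulin of growing neurons, scored 18.6, 23.9 and 13.5, and *Pcdh11x*, an adhesion protein, 11.4, 4.95 and 5.90. Neither was on enriched AGO2, with log2 values of 2.61, 2.61 and 2.93 for *Tuba1a* and 0.0783, 1.52 and 1.67 for *Pcdh11x*. All 3 libraries cover each of the printed seed matches, of which *Ids* has a pair.
*Ids*, chrX:69387779-69387785 of GRCm39, minus strand: gaatccatgtGTCTTCCtaaaatccct
*Ids*, chrX:69387689-69387695 of GRCm39, minus strand: agcagtcagaGTCTTCCctggctccac
*Tuba1a*, chr15:98848560-98848566 of GRCm39, minus strand: gtcaaattgtGTCTTCCatcactgctt
miR-7a-5p was also listed at a hairpin that encodes it, *Mir7-2*, with scores of 4.96, 9.93 and 4.93. A cluster at its own hairpin does not name an mRNA, and which RNA the miRNA was joined to there was not tested. No other member was listed at its own hairpin.

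For the remaining miRNAs few pairs recurred. miR-138-5p had 241 target genes, of which *Kdm6b*, an eraser of the repressive H3K27 methyl mark, recurred with scores of 27 in the WT library, and 15 and 10 in *Mov10* Deletion replicates 1 and 2. Its clusters, at chr11:69406313-69406441 in WT, lay about 7870 nt before the gene end, on AGO2 with a log2 of 4.67, 4.36 and 3.76. *Kdm6b* was therefore on enriched AGO2 each time, outside the annotated 3’UTR of 1318 nt. miR-137-3p had 90 target genes, and *Tcf4*, a transcription factor tied to intellectual disability, was listed at 6.29, 3 and 5.80. Its WT cluster lay 65 nt from the gene end, that of replicate 1 at 4468 nt, and replicate 2 had a cluster at each, so no single site was listed in all 3 libraries. miR-132-3p had 22, and *Nrep*, a protein of regenerating neurons, recurred at 20.9, 8 and 11 on AGO2 with a log2 of 2.36, 2.47 and 2.7. A miR-132-3p seed match of *Nrep* lay in the cluster of each library.

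miR-218-5p, miR-129-5p and miR-212-3p, with 77, 28 and 4 target genes, had no pair in all 3 libraries. For miR-218-5p the leading gene was *Trim9*, a ubiquitin ligase of axon branching, with 8.17 in WT and 11.8 in *Mov10* Deletion replicate 1, and it was not listed in replicate 2. These *Trim9* clusters lay 22477 and 22457 nt before the gene end, beyond the length of its longest annotated 3’UTR, 3146 nt. The AGO2 log2 there was 0.827 and 0.384. The highest miR-129-5p score was 5 in each library and fell on a different gene each time, in WT on *Hnrnpa0*, an RNA-binding protein. For miR-212-3p it was 6 in *Ralyl*, also an RNA-binding protein, in replicate 1 alone. With so few clusters, a missing pair says only that it was not listed.

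*Rn18s-rs5*, a copy of 18S ribosomal RNA, was listed with 6 miRNAs of the set in all 3 libraries. Its highest scores were those of miR-137-3p, at 90.3 in the WT library, and 63.3 and 25.9 in *Mov10* Deletion replicates 1 and 2, followed by miR-128-3p at 33.4, 25.8 and 21.9. The gene was listed with 100 different miRNAs of 328 in WT, 122 of 459 in replicate 1 and 77 of 379 in replicate 2, so it is not particular to any member. Whole reads on rRNA were removed by the authors before mapping, but for the target part of a chimera no such removal is stated. Copies in the genome are near-identical, which makes the position of *Rn18s-rs5* clusters uncertain.

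**Figure D3:**
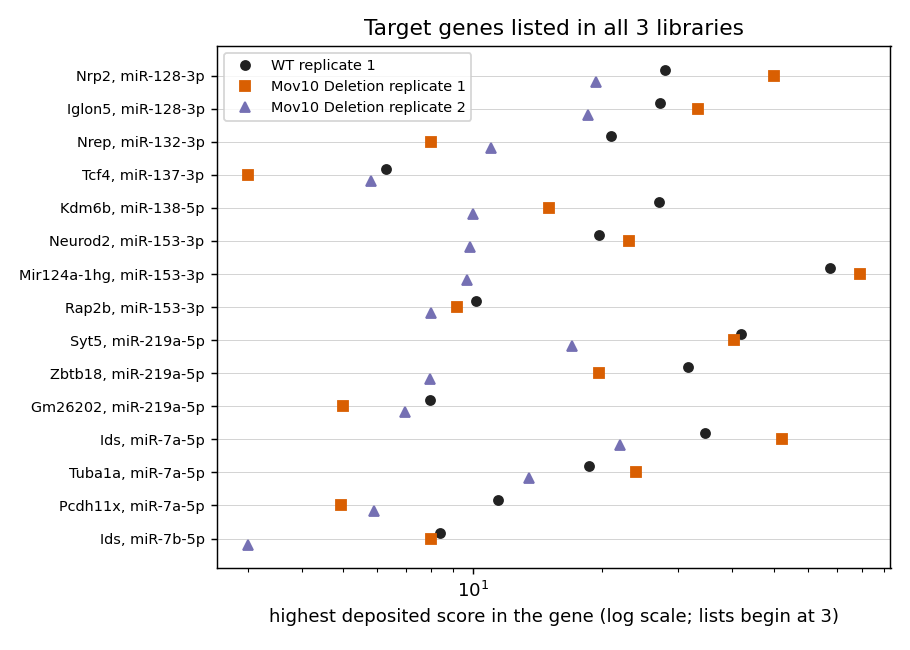
Highest deposited score (log axis, lists begin at 3) of the leading target genes of each miRNA in WT (circles) and *Mov10* Deletion replicates 1 (squares) and 2 (triangles), without *Rn18s-rs5*. Replicate 2 is lowest for most genes, as for *Neurod2* at 9.86 against 19.7 and 23.

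Scores in recurrent pairs differed between replicates as well as between genotypes. WT gave the highest score in 45 of 83 pairs and the lowest in 11, and *Mov10* Deletion replicate 1 exceeded replicate 2 in 61. The median score was 9.87 in WT, 8.12 in replicate 1 and 5.37 in replicate 2. The gap between the *Mov10* Deletion replicates was thus larger than that between WT and replicate 1.

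The share of members on enriched AGO2 clusters depended on Cdr1as. In WT this held for 184 of 751 members (24.5%, interval 21.5 to 27.7), where percent called over all assignments was 20%. In *Mov10* Deletion replicate 1 it held for 163 of 1260 (12.9%, over all 14.7%), and in replicate 2 for 93 of 568 (16.4%, over all 14.1%). Without Cdr1as the shares were 19.9%, 11.3% and 11.1%, near the share over all assignments in WT and below it in both *Mov10* Deletion libraries, where the intervals were 9.55 to 13.2 and 8.58 to 14.1. miR-138-5p was lower in the *Mov10* Deletion libraries, with 7 of 141 and 3 of 64 clusters on enriched AGO2, against 14 of 69 in WT. miR-128-3p had 55 of 315, 59 of 569 and 29 of 283, below the share over all assignments in each library.

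By position, 197 of 751 members lay in the last 1000 nt of a gene in WT (26.2%, against 19.4% of all assignments). In *Mov10* Deletion replicate 1 it was 203 of 1260 (16.1%, against 14.6%) and in replicate 2 99 of 568 (17.4%, against 15.8%). miR-137-3p had the largest shares among miRNAs with over 20 clusters in each library, at 24 of 39, 20 of 61 and 8 of 28, except that miR-153-3p passed it in replicate 2. miR-153-3p had 46 of 150, 41 of 182 and 16 of 55. Both stood above the share over all assignments in each library, whereas miR-138-5p had 16 of 69, 17 of 141 and 6 of 64, above it in WT only. The miR-137-3p counts include 3, 5 and 4 clusters on *Rn18s-rs5*, so 4 of the 8 in replicate 2 lay on that rRNA copy.

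The seeds were looked for in the clusters themselves. Sequence was read from GRCm39, and each mm10 cluster was placed on it by its distance from the end of the gene in its own build, so a site is missed where the annotated ends differ. Of 942 clusters over the 3 libraries that lay within the reach of an annotated 3’UTR, 311 held a 7-nt match to their own seed (33.0%, interval 30 to 36.1). Seeds of the other miRNAs in the set were found in 0.703% of the same comparisons. The share was 36 of 64 for miR-219a-5p (56.3%), 90 of 185 for miR-153-3p (48.6%) and 32 of 72 for miR-137-3p (44.4%). It was 29 of 79 for the miR-7 pair (36.7%), 11 of 30 for miR-218-5p (36.7%) and 5 of 13 for miR-132-3p with miR-212-3p (38.5%). miR-129-5p had 3 of 13 (23.1%), miR-128-3p 92 of 405 (22.7%) and miR-138-5p 13 of 81 (16.0%), the smallest share. For each of the 9 seeds the own share lay above that of every other seed in the same clusters, the highest of which was 7.69%. Clusters of both *Mov10* Deletion libraries share coordinates and are not separate observations of a site.

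**Figure D4:**
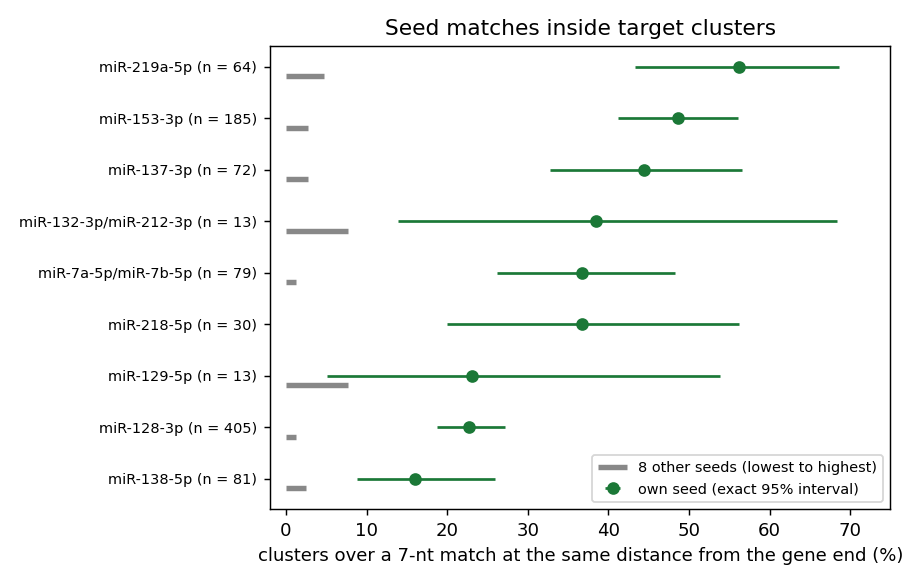
Percent of target clusters near a gene's 3′ end that hold a 7-nt match to their own miRNA's seed (points, exact 95% interval) and to the 8 other seeds of the set (bars, lowest to highest). Own matches range from 16.0% for miR-138-5p to 56.3% for miR-219a-5p, and no other seed passes 7.69%.

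Over whole 3’UTRs the own seed stood out less. The median annotated 3’UTR was 1468 nt over 20950 genes and 2749 nt for miR-128-3p targets. The own seed match, sought on the sense strand only, was present in 55.3% of 85 miR-137-3p targets against 12% of all genes. For miR-153-3p it was 50.6% of 265 against 10%, for miR-218-5p 48.6% of 74 against 17.9%, and for miR-128-3p 46.8% of 788 against 24.3%. For miR-129-5p it was 41.7% of 24 against 13.5%, for miR-138-5p 31.5% of 232 against 15.9%, for miR-219a-5p 28.1% of 128 against 6.09% and for the miR-7 pair 29.1% of 127 against 15.5%. Each of these seeds was found more often in its own targets than in those of any other miRNA of the set, with the exception of that of miR-138-5p, whose match was in 32.4% of miR-218-5p targets. The miR-132-3p and miR-212-3p match was in 20% of their 25 targets, below its share in most other target sets.

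**Figure D5:**
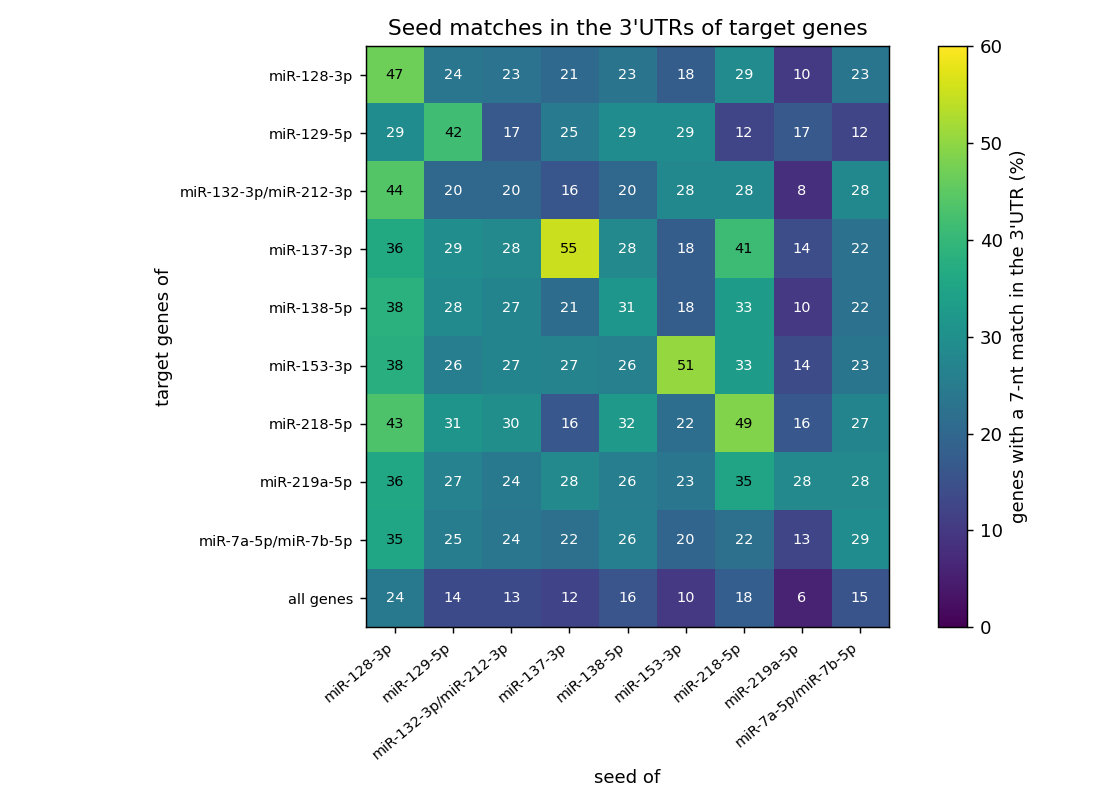
Percent of genes whose annotated 3’UTR holds a 7-nt match, by the miRNA the genes are targets of (rows, with all genes in the bottom row) and the miRNA the seed belongs to (columns). The diagonal is the brightest cell of its column except for miR-138-5p and for miR-132-3p with miR-212-3p, and peaks at 55.3% for miR-137-3p.

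Most targets known from the literature were not listed with their miRNA. Listed were 2 of 5 textbook genes for miR-128-3p, 1 of 5 for miR-153-3p and 1 of 3 for miR-138-5p. Of 21472 protein-coding genes, 797, 267 and 238 held a cluster of these miRNAs in any library, and 130 held 1 of miR-219a-5p. A difference between the lists and these counts was not tested. Of the textbook lists, *Zbtb18* with miR-219a-5p was present in all 3 libraries (1 of 5 genes). *Lypla1*, the depalmitoylating enzyme through which miR-138-5p is known to act on spines, had a score of 5 in *Mov10* Deletion replicate 1 alone. *Vamp2*, the vesicle SNARE, had 4.38 with miR-153-3p in WT alone, while *Snap25*, *App* and *Nfia* had no miR-153-3p cluster. miR-128-3p was listed in *Phf6*, a chromatin protein, with 3 in replicate 1, and in *Dcx*, a microtubule protein of migrating neurons, with 3 in replicate 2. Seed matches inside the single clusters of *Lypla1* and *Vamp2* are printed because the pairs rest on 1 library each.
*Lypla1*, chr1:4915268-4915274 of GRCm39, plus strand: agtagaagttCACCAGCatcacagtag
*Vamp2*, chr11:68981812-68981818 of GRCm39, plus strand: tttgcatctgCTATGCAatagcccctc
No gene of the lists for miR-129-5p, miR-132-3p with miR-212-3p, miR-137-3p or miR-218-5p was listed with its miRNA, and of the miR-7 list only Cdr1as was. *Arhgap32*, a textbook target of miR-132-3p, was listed with miR-128-3p in all 3 libraries instead, at 13.5, 22.4 and 4.97.

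Genes of neuronal pathways were described over all 11 miRNAs and any library, beside 6.92% of protein-coding genes with a member cluster. Gene length and expression, which raise the chance of a cluster, were not taken into account. Of axon guidance genes, 10 of 16 were listed. *Plxna2*, a semaphorin receptor, recurred with miR-128-3p at 23.9 in the WT library, and 15.4 and 5.65 in *Mov10* Deletion replicates 1 and 2. *Robo1* and *Robo2*, the Slit receptors, were listed with miR-128-3p in the *Mov10* Deletion libraries only, at 3.81 and 6.18 for *Robo1* and at 6.98 in replicate 1 for *Robo2*, and not with miR-218-5p. Of neuronal transcription factors, 12 of 15 were listed, among them *Sox11* with miR-128-3p at 3.50 in WT and 5.33 in replicate 2.

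Of the glutamate and GABA receptor genes 7 of 11 were listed, none in all 3 libraries, and the highest was *Grin2b*, an NMDA receptor subunit, with miR-219a-5p at 6.86 in *Mov10* Deletion replicate 1. Of potassium channel genes 5 of 9 were listed, none in all 3 libraries. Among them *Kcnd2*, a channel of A-type currents, had 3.91 with miR-153-3p in replicate 1 and 4.57 with miR-128-3p in replicate 2. Of synaptic vesicle genes 4 of 11 were listed, with *Syn2* and miR-153-3p highest at 7.30 in replicate 1. Chromatin regulators had 3 of 11, with *Arid1a* and miR-128-3p at 7.44 in WT and 3.74 in replicate 1. Most pairs in these groups were thus listed in 1 library and near the lowest score.

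Of genes of the miRNA machinery 4 of 10 were listed, and all are partners in silencing. They are *Tnrc6a*, *Tnrc6b*, *Tnrc6c* and *Ago3*, and miR-153-3p was listed on all but *Ago3*. *Tnrc6a* scored 3.68 with miR-153-3p in WT and 11.9 in *Mov10* Deletion replicate 1, and *Tnrc6b* 4.69 in WT. *Mov10* itself held no target cluster of any miRNA in any library. Of 9 host genes of these and related miRNAs, *Arpp21*, *Mir124a-1hg*, *Ptprn2* and *Slit3* were listed. *Mir124a-1hg* hosts a miR-124 precursor and no member of the set, and the list was chosen with earlier results known. Beside both lists stands the 6.92% of protein-coding genes with a member cluster in any library. *Arpp21*, the host of a miR-128 precursor, was met by miR-219a-5p at 4.18 and 4.98 in the *Mov10* Deletion replicates and not by miR-128-3p. Genes met by several seeds of the set were few. Of 1535 target genes, 1306 had 1 seed family, 177 had 2, 36 had 3 and 12 had 4. *Ralyl* and *Tenm2*, an adhesion protein of synapses, had 5 each, as had the mitochondrial *mt-Rnr2*, and *Rn18s-rs5* had 8.

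With Cdr1as, recurrence of the member clusters was near that of all miRNAs for WT members and lower for *Mov10* Deletion members. Without Cdr1as it was lower for members of every library. A WT member overlapped a cluster of the same miRNA in *Mov10* Deletion replicate 1 in 34.5% of cases, against 34.4% over all miRNAs, and in replicate 2 in 19.4% against 19.4%. Off Cdr1as the member values were 30.2% and 15.1%. miR-7b-5p recurred most, in 28 of 33 WT clusters in replicate 1, and miR-138-5p was among the lowest, in 8 of 69. In WT, 20.6% of replicate 1 members recurred against 25.5% over all miRNAs, and 24.6% of replicate 2 members against 31.7%. Between the *Mov10* Deletion libraries it was 11.5% of replicate 1 members against 12.4%, and 25.5% of replicate 2 members against 28.1%. Off Cdr1as, 17.7% of replicate 1 members and 19.6% of replicate 2 members recurred in WT. Between the *Mov10* Deletion libraries the values off Cdr1as were 8.97% and 20.6%. All values over all miRNAs include Cdr1as. Neuronal identity of the tissue was checked by AGO2 clusters in marker genes. All 6 neuronal markers held some in each library, with 1104 clusters for WT, 1766 for *Mov10* Deletion replicate 1 and 1767 for replicate 2. All markers of glia, endothelium, microglia and blood held at least 1 too. Of 3 liver markers, *Alb* held 1 AGO2 cluster in WT and 3 in each *Mov10* Deletion library, and *Afp* and *Apoa1* held none. Of 3 skeletal muscle markers 1 held clusters in WT and 2 in each *Mov10* Deletion library, 1 of them enriched in replicate 2. Among all these markers, member clusters lay only in 5 neuronal genes and in *Fabp7* of radial glia.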

How the data were processed

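RNA bound by AGO2 was measured in whole P0 brains of C57Bl/6J mice, as 3 IP libraries, 1 of WT and 2 of *Mov10* Deletion, with their inputs. The authors extracted molecular identifiers with UMI-tools 1.1.1, trimmed reads with cutadapt 3.2, removed reads of repeats and rRNA, mapped the rest to mm10 with STAR 2.7.7a, removed duplicates and called clusters with CLIPper. Each deposited AGO2 cluster has a log2 ratio of IP to input and a −log10 p-value, which ends at 400. For chimeras they matched miRBase miRNAs to reads with Bowtie 1.2.3, mapped the remainder with STAR and called clusters. The score that the authors deposited for each miRNA target cluster is at least 3 in every list, and its definition is not given in the sources used here. The lists hold no read totals, so depth is unknown and no count test was made. Pooling of libraries before cluster calling is not stated.

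Groups came from the labels, replicate numbers within a genotype. Members were taken by miRNA name. The members and lists were chosen with earlier results of these data known. A cluster was given to each RefSeq gene of mm10 that held its midpoint on the sense strand; 45321 of 49980 gene bodies had a strand. No mm10 sequence was used here, so 3’UTRs, sites and exons were read from GRCm39 with GENCODE vM39 and no coordinate was converted. Genes were named as the 3 per miRNA with the highest minimum score among genes in all 3 libraries, or else the highest score, plus the 3 clusters with the highest score in each library and the genes of lists of textbook targets, host genes and pathways. Python 3.11.15, pandas 2.3.3, numpy 2.4.6, scipy 1.17.1 and matplotlib 3.10.9 were used, and the steps were tested on simulated data. Alternatives were a score of at least 4 or 5, clusters with a single name, leaving out Cdr1as, *Rn18s-rs5* with mitochondrial genes or a library, a stricter enrichment or overlap, the last 3000 nt, and a 6-nt match. Leaving out Cdr1as, *Rn18s-rs5* with mitochondrial genes, or a library from the count of recurrent pairs was chosen after seeing the data. A few listed genes are not reported here.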

Additional observations from a re-analysis of the deposited data

Results flagged for a closer look

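The opposite arms of the hairpins that give rise to the 11 miRNAs were not counted among them, and they were looked up because such lists hold data outside the comparisons. miR-129-2-3p had 8 target clusters in the WT library, and 28 and 11 in *Mov10* Deletion replicates 1 and 2, above the limit of 3 that a count of 0 allows in each. It passed miR-129-5p, at 4, 22 and 3 clusters, in every library. miR-129-1-3p stood above that limit in *Mov10* Deletion replicate 1 alone, with 6 clusters, as did miR-7a-1-3p with 4. Differences between the libraries were not tested.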

How the results depend on the processing

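No paired analysis was possible because WT had a single library and so shared fewer than 2 replicate numbers with *Mov10* Deletion. Depth, the meaning of the score and the pooling behind the *Mov10* Deletion coordinates limit every comparison between libraries. The joint share of the 11 miRNAs stayed lower in WT than in both *Mov10* Deletion libraries under every setting tried, none of which left out miR-128-3p. The shares of miR-128-3p, miR-138-5p, miR-7a-5p and miR-132-3p, the last with only 6, 11 and 9 clusters, stayed lower too. That of miR-137-3p turned to lie above both at a score of at least 4 or 5. In WT the joint share was 2.91% among clusters with a single name and 3.17% without Cdr1as, and in *Mov10* Deletion replicate 1 it was 3.84% and 3.76% at a score of at least 4 and 5. The WT share of miR-7b-5p lay below both others without Cdr1as, at 0.0364% against 0.0756% and 0.0373%. The share of members on enriched AGO2 moved to 19.9% in WT and 11.1% in replicate 2 without Cdr1as, and to 11% in replicate 1 when the overlap had to cover at least 50% of the target cluster. Within the last 3000 nt of a gene lay 48.9%, 34.8% and 33.6% of members in WT and replicates 1 and 2. At a score of at least 4 there were 335, 513 and 249 target genes and 53 recurrent pairs. Leaving out either *Mov10* Deletion library turned the 163 shared genes into lists of 459 to 953 of a single library, and the recurrent pairs into 110 to 208, fewer libraries having to list them. A 6-nt match was present in 71.4% of target 3’UTRs, against 42.7% for 7 nt, and matches of the other seeds rose from 23.8% to 57.9%. Of the other alternatives for these results, 27 moved less than counting error or, for counts, 1.5-fold.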
